A study of Schizosaccharomyces pombe with 16 samples.

Results

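The genes studied here encode the translation initiation factors of the fission yeast Schizosaccharomyces pombe other than eIF2 and its exchange factor eIF2B. They were chosen as the genes whose deposited description contains the words translation initiation factor, which 34 of the 7014 genes in the count table carry, without the 8 genes of eIF2 and eIF2B subunits. This left 26 genes, and all 26 passed the filter on low counts, with at least 495 reads per library on average. The choice went by description only: int6, which encodes eIF3e, and the genes of eIF5A are described in other words and were not included. Total mRNA and polysome fractions were sequenced from eIF2α.S52A cells and WT cells, each at 6 h and at 0 h, in 8 groups of 2 replicates and 16 libraries. In eIF2α.S52A cells the serine of eIF2α that the eIF2 kinases phosphorylate is replaced by alanine, and WT cells are of strain 972. By the strain list of the study, the mutant also carries a Ura4 marker beside the mutation and the ura4-D18 allele, which WT cells lack, so the mutation cannot be told apart from these differences. All cultures grew in rich YES medium without any added agent, and 0 h stands for exponential growth and 6 h for cells about to enter stationary phase. The replicate numbers stand for 2 experiments, and libraries that share a number come from the same experiment.

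Translation of most mRNAs starts when eIF4E binds the cap, eIF4G bridges the cap to the small ribosomal subunit, and the helicase eIF4A with its helper eIF4B opens the leader. The small subunit, bound by eIF1, eIF1A, eIF3, eIF5 and the ternary complex of eIF2, GTP and initiator tRNA, then scans to a start codon, after which eIF5B joins the large subunit. Phosphorylation of eIF2α blocks eIF2B and so lowers the supply of ternary complex, whereas the genes described here serve the steps around it, and in yeasts genes for the translation machinery are known to be expressed in step with growth.

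The libraries held 11279417 to 20522997 counts, of which the 26 genes took 1.02 to 1.68%. Levels are given as CPM, read counts scaled to the size of each library with TMM factors, for replicate 1 and then replicate 2. Differences are log2 values ± SE from the quasi-likelihood test of edgeR, fitted to all 8 groups together over 6170 genes, and called means an adjusted p under 0.05. A share of all genes called counts both directions unless a direction is named, also where the genes of the set were all called lower. TMM scaling sets the typical gene near 0, so that a change common to all mRNAs is not measured. In RNA pooled from a culture, less mRNA in every cell and fewer cells with the mRNA cannot be told apart. The eIF2α.S52A libraries of replicate 2 at 6 h stood apart from those of replicate 1: cytosolic ribosomal protein genes took 15.6 and 22.6% of the counts in total mRNA (replicates 1 and 2) and 31.2 and 46.1% in polysome fractions. Counts of called genes that rest on them are also given without them.

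At 0 h in total mRNA of WT cells, the level per kilobase of coding sequence differed widely among the 26 genes (mean ± SD, n = 2). The highest was that of tif1, which encodes eIF4A, at 1917 ± 25.7 CPM per kb, followed by sui1, which encodes eIF1, at 1608 ± 71.9 CPM per kb, and tif11, which encodes eIF1A, at 1007 ± 32.2 CPM per kb. The next was sce3 at 736 ± 43.6 CPM per kb, and no value of these 4 genes in either library reached that of the gene above it. Among the 10 eIF3 genes the level ran from 171 ± 11.7 CPM per kb for tif33 (eIF3c) and 189.8 ± 2.42 CPM per kb for tif32 (eIF3a) to 652 ± 21.3 CPM per kb for sum1 (eIF3i). The gene of the loosely bound subunit eIF3j, hcr1, had 198 ± 18.6 CPM per kb and did not differ from tif32 beyond this spread. Between moe1 (eIF3d) with 335 ± 26.4 CPM per kb and eif6 (eIF3f) with 458 ± 24.1 CPM per kb lay a run of 9 genes in which neighbours differed by less than the larger SD, except tif38 and tif302. Cap-binding tif45 (eIF4E) was one of them, with 374 ± 33.9 CPM per kb, whereas its partner eIF4G, encoded by tif471, had 134 ± 0.534 CPM per kb. The lowest were cdc123 with 36.9 ± 1.23 CPM per kb, mti3 with 27.7 ± 1.94 CPM per kb and mti2 with 21.5 ± 2.88 CPM per kb, the last a pair of mitochondrial factors.

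Most of the 26 mRNAs had lower values at 6 h than at 0 h, relative to other mRNAs, in both strains and both fractions. In eIF2α.S52A cells 22 of 26 genes had a value below 0 in total mRNA, with a median of -0.34 beside -0.04 over all genes tested, and 20 of 26 in polysome fractions, with a median of -0.43 beside 0.0 over all genes. No gene of the set was called in eIF2α.S52A cells by edgeR, where 2.87 and 6.99% of all genes tested were called in total mRNA and polysome fractions, although an unadjusted p under 0.05 was found for 5 and 10 of the 26 (18.2 and 24.2% of all genes), and by DESeq2 0 and 7 were called (7.76 and 14.3% of all genes). In total mRNA of WT cells 21 of 26 genes had a value below 0, with a median of -0.63 beside -0.01 over all genes tested, and the libraries at 6 h lay below those at 0 h without overlap for 21 genes (36.2% of all genes tested). The test called 5 of them lower, tif1, tif11, tif32, tif45 and moe1, and none higher, where 12.0% of all genes tested were called and 6.01% called lower. In polysome fractions of WT cells 23 of 26 lay below 0 with a median of -0.60 beside -0.01 over all genes, and the 5 called, all lower, were sce3, tif1, tif45, tif32 and cdc123, where 17.5% of all genes tested were called and 8.9% called lower.

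Without any 1 of the 4 WT libraries compared, no gene of the set was called in total mRNA, where 0.225 to 2.71% of all genes were, and 1 or none in polysome fractions, where 3.93 to 8.24% were. Such a fit leaves 1 library on a side, which is taken to vary like the other groups. Each experiment on its own gave the 5 genes called in total mRNA of WT cells log2(CPM + 1) changes between -1.18 (tif1) and -0.63 (moe1), and the 5 called in polysome fractions changes between -1.14 (sce3) and -0.48 (cdc123). Since the genes were called from these same experiments, such changes describe the calls and are no separate check of them. In polysome fractions of eIF2α.S52A cells 7 genes of the set were called without replicate 2 at 6 h, where 13.8% of all genes were, and 1 without replicate 2 at 0 h, where 2.5% were. With the experiment added to the model as a replicate block, sce3 was called lower in total mRNA of eIF2α.S52A cells (adjusted p = 0.0428), where 7.49% of all genes were called. In their polysome fractions mti2 was then called higher and cdc123, sce3, tif313 and tif5 lower (adjusted p = 0.0199 to 0.0434), where 13.7% of all genes were called. In total mRNA of WT cells the block called the same 5 genes and another 6 (hcr1, sce3, sum1, tif35, tif38 and tif52) lower, with adjusted p = 0.00973 to 0.0444 for those added, where 22.3% of all genes were called. For WT polysome fractions it called the same 5 and another 7 (hcr1, sui1, sum1, tif11, tif313, tif35 and tif471), with adjusted p = 0.0133 to 0.0486 for those added, where 27.4% of all genes were called. DESeq2 called 14 genes of the set lower in total mRNA and 11 in polysome fractions of WT cells, in both cases with the 5 of edgeR among them, where 19.8 and 23.3% of all genes were called. When reads were scaled by library size alone, the median of all genes moved by 0.14 and 0.22 in total mRNA and by 0.59 and 0.51 in polysome fractions (eIF2α.S52A and WT cells). The median of the 26 genes then came to 0.15 in polysome fractions of eIF2α.S52A cells, with the sign reversed, but relative to the median of all genes it stayed at -0.43.

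**Figure D1:**
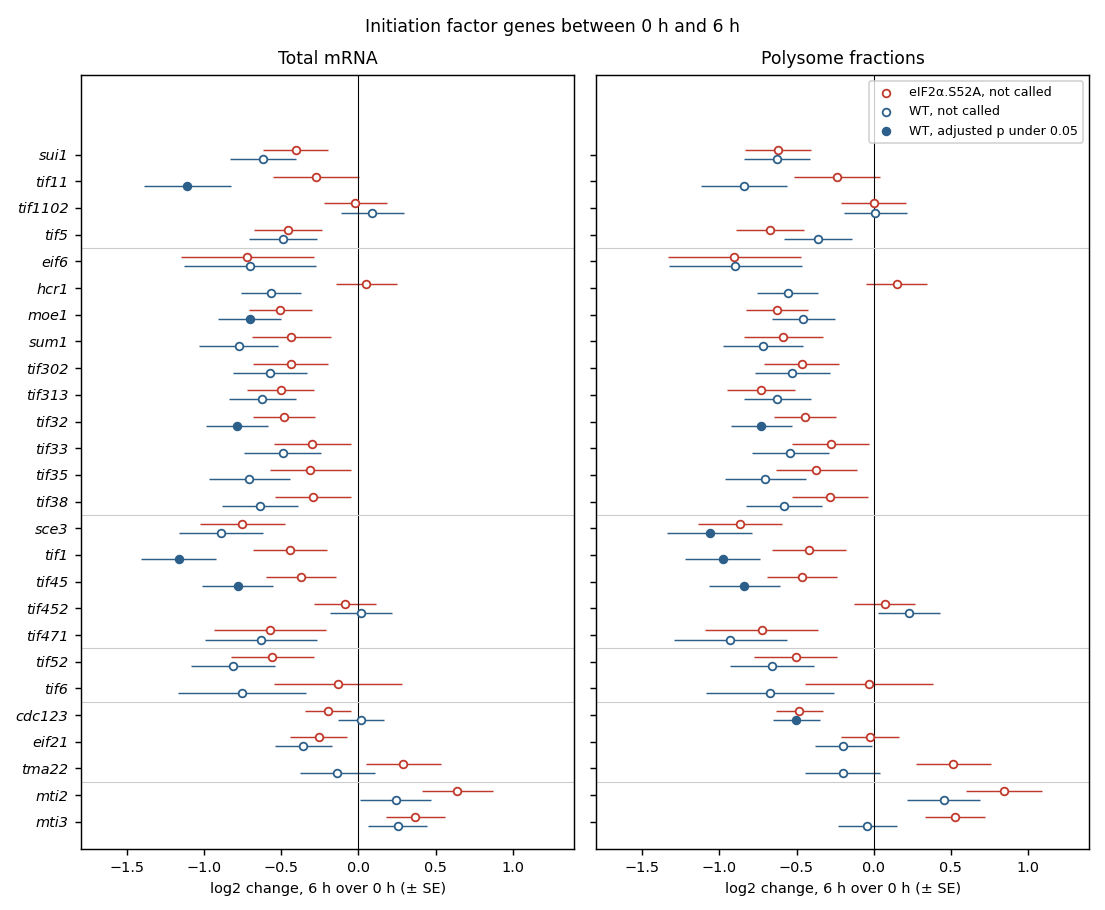
Change of each of the 26 genes between 0 h and 6 h, as log2 of the level at 6 h over that at 0 h with SE (x axis), in total mRNA (left) and polysome fractions (right) of eIF2α.S52A cells (red) and WT cells (blue), genes grouped by role. Filled points mark adjusted p under 0.05, all of them WT values below 0, and the mitochondrial pair mti2 and mti3 at the bottom lies to the right of most other genes.

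Among the factors of start-codon selection, tif11 showed the largest difference between strains at 6 h in both fractions, and tif5 the largest at 0 h. The gene tif11 (SPBC25H2.07) encodes eIF1A, which with eIF1 keeps the small subunit open for scanning. In total mRNA tif11 had 319 and 451 CPM at 6 h, against 473 and 460.3 at 0 h, in eIF2α.S52A cells and 185 and 203 CPM at 6 h, against 411 and 429.6 at 0 h, in WT cells. In polysome fractions tif11 had 654 and 1109.6 CPM at 6 h, against 860.4 and 1217 at 0 h, in eIF2α.S52A cells and 427 and 501 CPM at 6 h, against 722 and 941 at 0 h, in WT cells. The WT libraries at 6 h were the lowest of their fraction, while those of eIF2α.S52A cells at 6 h overlapped their 0 h libraries in polysome fractions and not in total mRNA. In total mRNA the log2 difference of 6 h from 0 h for tif11 was -0.28 ± 0.28 in eIF2α.S52A cells (adjusted p = 0.64) and -1.11 ± 0.28 in WT cells (adjusted p = 0.0272), and eIF2α.S52A minus WT was 0.84 ± 0.40 (adjusted p = 1). The gene sui1 (SPBC23G7.05) encodes eIF1, which guards against starting at the wrong codon. In total mRNA sui1 had 331 and 382 CPM at 6 h, against 497 and 449 at 0 h, in eIF2α.S52A cells and 328 and 362 CPM at 6 h, against 547 and 514 at 0 h, in WT cells. In polysome fractions sui1 had 1214 and 1765 CPM at 6 h, against 2082 and 2504 at 0 h, in eIF2α.S52A cells and 1358 and 1244 CPM at 6 h, against 2086 and 1936 at 0 h, in WT cells. In each strain and fraction both 6 h libraries lay below both 0 h libraries, with changes of -0.41 ± 0.21 and -0.62 ± 0.21 in total mRNA and -0.62 ± 0.21 and -0.63 ± 0.21 in polysome fractions (eIF2α.S52A and WT cells), none of them called. The gene tif5 (SPAC2F7.05c) encodes eIF5, which makes eIF2 hydrolyse its GTP at the start codon. In total mRNA tif5 had 379 and 553 CPM at 6 h, against 645 and 636 at 0 h, in eIF2α.S52A cells and 337 and 400.5 CPM at 6 h, against 475 and 559.6 at 0 h, in WT cells. In polysome fractions tif5 had 949 and 1086 CPM at 6 h, against 1699 and 1542 at 0 h, in eIF2α.S52A cells and 804 and 792 CPM at 6 h, against 916 and 1132 at 0 h, in WT cells. All 6 h libraries were again below their 0 h libraries, and at 0 h both eIF2α.S52A libraries were above both WT libraries in each fraction. The change of tif5 was -0.67 ± 0.22 in polysome fractions of eIF2α.S52A cells (adjusted p = 0.0851) and -0.36 ± 0.22 in those of WT cells (adjusted p = 0.275). The gene tif1102 (SPBC146.08c), described as eIF1A-like, was far less abundant than tif11. In total mRNA tif1102 had 25.3 and 27.6 CPM at 6 h, against 23.3 and 30.2 at 0 h, in eIF2α.S52A cells and 28.5 and 36.5 CPM at 6 h, against 27.4 and 33.7 at 0 h, in WT cells. In polysome fractions tif1102 had 56.05 and 51.0 CPM at 6 h, against 48.6 and 58.3 at 0 h, in eIF2α.S52A cells and 49.2 and 57.7 CPM at 6 h, against 47.0 and 59.0 at 0 h, in WT cells. Its libraries at 6 h and 0 h overlapped in all 4 pairs of groups, and no change exceeded 0.09 ± 0.20.

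The eIF3 complex, a scaffold on the small subunit that contacts most other factors, was represented by 10 genes. In eIF2α.S52A cells 9 of 10 lay below 0 in each fraction, none called, with values between -0.72 and 0.05 in total mRNA and between -0.90 and 0.15 in polysome fractions, and the values above 0 were those of hcr1. In WT cells the 6 h libraries of all 10 lay below the 0 h libraries in both fractions, with values between -0.79 and -0.49 in total mRNA and between -0.90 and -0.46 in polysome fractions, where 36.2 and 30.1% of all genes lay below in the same way. Of these, tif32 and moe1 were called lower in total mRNA of WT cells and tif32 in their polysome fractions.

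The gene tif32 (SPBC17D11.05) encodes eIF3a, the largest subunit. In total mRNA tif32 had 353 and 462 CPM at 6 h, against 580.2 and 559.6 at 0 h, in eIF2α.S52A cells and 293 and 322 CPM at 6 h, against 527 and 536 at 0 h, in WT cells. In polysome fractions tif32 had 463 and 569.7 CPM at 6 h, against 769.8 and 636 at 0 h, in eIF2α.S52A cells and 313 and 314 CPM at 6 h, against 551 and 487 at 0 h, in WT cells. In both fractions the WT libraries at 6 h were the lowest, both strains lay lower at 6 h without overlap, and eIF2α.S52A libraries lay above those of WT cells at both times. The change of tif32 in eIF2α.S52A cells was -0.48 ± 0.20 in total mRNA (adjusted p = 0.223) and -0.44 ± 0.20 in polysome fractions (adjusted p = 0.193), and in WT cells -0.79 ± 0.20 (adjusted p = 0.0268) and -0.73 ± 0.20 (adjusted p = 0.0272). In the deposited table the name tif32 stands in a row with the identifier of another gene, nto1, and eIF3a was read here from the row with its own identifier. The gene moe1 (SPAC637.07) encodes eIF3d, which in human cells can bind the cap of some mRNAs. In total mRNA moe1 had 363 and 411 CPM at 6 h, against 582 and 519 at 0 h, in eIF2α.S52A cells and 352 and 349 CPM at 6 h, against 603 and 539.5 at 0 h, in WT cells. In polysome fractions moe1 had 697 and 879 CPM at 6 h, against 1374 and 1059.7 at 0 h, in eIF2α.S52A cells and 669 and 615 CPM at 6 h, against 948 and 815 at 0 h, in WT cells. In all 4 pairs of groups 6 h lay below 0 h, with -0.51 ± 0.20 in total mRNA of eIF2α.S52A cells (adjusted p = 0.213) and -0.71 ± 0.20 in that of WT cells (adjusted p = 0.0438). The gene hcr1 (SPAC3A12.13c) encodes eIF3j, which in budding yeast also acts after termination. In total mRNA hcr1 had 144 and 184 CPM at 6 h, against 156 and 161 at 0 h, in eIF2α.S52A cells and 97.7 and 123 CPM at 6 h, against 153 and 174 at 0 h, in WT cells. In polysome fractions hcr1 had 371 and 414 CPM at 6 h, against 330.2 and 377 at 0 h, in eIF2α.S52A cells and 231 and 219 CPM at 6 h, against 301 and 362 at 0 h, in WT cells. In eIF2α.S52A cells 6 h and 0 h overlapped, whereas in WT cells both 6 h libraries were below both 0 h libraries. The changes of hcr1 were 0.15 ± 0.20 in polysome fractions of eIF2α.S52A cells (adjusted p = 0.701) and -0.56 ± 0.20 in those of WT cells (adjusted p = 0.0703), with a difference of 0.71 ± 0.28 that was not called (adjusted p = 0.848).

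The other 7 subunit genes followed a similar course. The gene tif302 (SPAC25G10.08) encodes eIF3b and tif33 (SPAC4A8.16c) eIF3c, both part of the core. In total mRNA tif302 had 485 and 629 CPM at 6 h, against 774 and 739 at 0 h, in eIF2α.S52A cells and 508 and 553 CPM at 6 h, against 795 and 785 at 0 h, in WT cells. In polysome fractions tif302 had 975 and 904 CPM at 6 h, against 1537 and 1058 at 0 h, in eIF2α.S52A cells and 820.1 and 651 CPM at 6 h, against 1239 and 881 at 0 h, in WT cells. For tif302 the 6 h libraries were below the 0 h libraries in all 4 pairs of groups, and in polysome fractions replicate 1 was above replicate 2 in each group. In total mRNA tif33 had 337 and 479 CPM at 6 h, against 489.6 and 515 at 0 h, in eIF2α.S52A cells and 316 and 354 CPM at 6 h, against 448 and 494 at 0 h, in WT cells. In polysome fractions tif33 had 911 and 1046 CPM at 6 h, against 1375 and 999 at 0 h, in eIF2α.S52A cells and 695 and 535 CPM at 6 h, against 1032 and 757 at 0 h, in WT cells. The 6 h libraries of tif33 were lower without overlap except in polysome fractions of eIF2α.S52A cells. The genes tif35 (SPBC18H10.03) and sum1 (SPAC4D7.05) encode eIF3g and eIF3i, which form a module with eIF3b. In total mRNA tif35 had 285 and 331 CPM at 6 h, against 396 and 369 at 0 h, in eIF2α.S52A cells and 237 and 235 CPM at 6 h, against 389 and 382 at 0 h, in WT cells. In polysome fractions tif35 had 324 and 563 CPM at 6 h, against 472 and 674 at 0 h, in eIF2α.S52A cells and 333 and 398 CPM at 6 h, against 537 and 652 at 0 h, in WT cells. In polysome fractions of eIF2α.S52A cells replicate 2 of tif35 at 6 h was above replicate 1 at 0 h, and elsewhere 6 h was lower without overlap. In total mRNA sum1 had 363 and 450.3 CPM at 6 h, against 564 and 536 at 0 h, in eIF2α.S52A cells and 349 and 401 CPM at 6 h, against 628 and 658 at 0 h, in WT cells. In polysome fractions sum1 had 796 and 1416 CPM at 6 h, against 1530.1 and 1788 at 0 h, in eIF2α.S52A cells and 909.9 and 1034 CPM at 6 h, against 1442 and 1752 at 0 h, in WT cells. The change of sum1 was -0.43 ± 0.26 in total mRNA of eIF2α.S52A cells (adjusted p = 0.399) and -0.78 ± 0.26 in that of WT cells (adjusted p = 0.0683), and 6 h was lower in all 4 pairs of groups. The genes eif6 (SPBC4C3.07), tif38 (SPAC821.05) and tif313 (SPAC1751.03) encode eIF3f, eIF3h and eIF3m. In total mRNA eif6 had 233 and 316 CPM at 6 h, against 484 and 422 at 0 h, in eIF2α.S52A cells and 247 and 264 CPM at 6 h, against 432 and 401 at 0 h, in WT cells. In polysome fractions eif6 had 151 and 449 CPM at 6 h, against 383 and 739.9 at 0 h, in eIF2α.S52A cells and 276 and 396 CPM at 6 h, against 560.1 and 691 at 0 h, in WT cells. In polysome fractions of eIF2α.S52A cells at 6 h the replicates of eif6 lay far apart and overlapped with 0 h, and its changes carried the largest SE of the set, -0.90 ± 0.43 in these fractions (adjusted p = 0.219). In total mRNA tif38 had 251 and 316 CPM at 6 h, against 358 and 339 at 0 h, in eIF2α.S52A cells and 222 and 242 CPM at 6 h, against 359 and 364 at 0 h, in WT cells. In polysome fractions tif38 had 429 and 746 CPM at 6 h, against 644 and 788 at 0 h, in eIF2α.S52A cells and 416 and 459 CPM at 6 h, against 621 and 689 at 0 h, in WT cells. Only the polysome libraries of eIF2α.S52A cells overlapped between 6 h and 0 h for tif38. In total mRNA tif313 had 255 and 326 CPM at 6 h, against 419 and 404 at 0 h, in eIF2α.S52A cells and 274 and 324 CPM at 6 h, against 434 and 488 at 0 h, in WT cells. In polysome fractions tif313 had 619.6 and 779 CPM at 6 h, against 1313 and 1007 at 0 h, in eIF2α.S52A cells and 675 and 559 CPM at 6 h, against 983 and 919.8 at 0 h, in WT cells. The gene tif313 had the larger change in polysome fractions of eIF2α.S52A cells, -0.73 ± 0.22 (adjusted p = 0.0621), beside -0.62 ± 0.22 in WT cells (adjusted p = 0.0672), and the difference was -0.11 ± 0.31 (adjusted p = 0.982).

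Of the 5 genes for cap binding and unwinding, sce3, tif1, tif45 and tif471 lay lower at 6 h and tif452 had values between -0.09 and 0.23. The gene tif1 (SPAC1006.07) encodes the RNA helicase eIF4A and had the highest level per kilobase of the set. In total mRNA tif1 had 1458 and 2123 CPM at 6 h, against 2606 and 2265 at 0 h, in eIF2α.S52A cells and 1028 and 985 CPM at 6 h, against 2281 and 2238 at 0 h, in WT cells. In polysome fractions tif1 had 2215 and 3323 CPM at 6 h, against 3449.8 and 3968 at 0 h, in eIF2α.S52A cells and 1724 and 1727 CPM at 6 h, against 3198 and 3609 at 0 h, in WT cells. At 6 h both eIF2α.S52A libraries were above both WT libraries in each fraction, and both strains were below their 0 h libraries. In eIF2α.S52A cells the values of tif1 were -0.44 ± 0.24 in total mRNA (adjusted p = 0.356) and -0.42 ± 0.24 in polysome fractions (adjusted p = 0.307). In WT cells tif1 fell by 1.17 on the log2 scale in total mRNA (SE 0.24, adjusted p = 0.0149), the largest fall of the set there, and by 0.98 in polysome fractions (SE 0.24, adjusted p = 0.018). The gene sce3 (SPBC18H10.04c), the fission yeast counterpart of eIF4B, helps the helicase. In total mRNA sce3 had 551 and 547 CPM at 6 h, against 1022 and 828 at 0 h, in eIF2α.S52A cells and 485 and 441 CPM at 6 h, against 895 and 823 at 0 h, in WT cells. In polysome fractions sce3 had 964 and 707 CPM at 6 h, against 1826 and 1222 at 0 h, in eIF2α.S52A cells and 806 and 540.4 CPM at 6 h, against 1621 and 1194 at 0 h, in WT cells. All 6 h libraries were below their 0 h libraries, and in polysome fractions replicate 1 was above replicate 2 in every group. In polysome fractions the change of sce3 was -0.87 ± 0.27 in eIF2α.S52A cells (adjusted p = 0.0753) and -1.06 ± 0.28 in WT cells (adjusted p = 0.0213), the largest fall of the set in polysome fractions of WT cells.

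The cap-binding protein eIF4E has a pair of genes. In total mRNA tif45 had 153 and 218 CPM at 6 h, against 242 and 238 at 0 h, in eIF2α.S52A cells and 126 and 159 CPM at 6 h, against 229.8 and 261 at 0 h, in WT cells. In polysome fractions tif45 had 576 and 725 CPM at 6 h, against 966 and 831 at 0 h, in eIF2α.S52A cells and 463 and 375 CPM at 6 h, against 791 and 708 at 0 h, in WT cells. Libraries of tif45 (SPAC16E8.15) at 6 h were lower without overlap in all 4 pairs of groups, and the change in WT cells was -0.78 ± 0.23 in total mRNA (adjusted p = 0.0452) and -0.84 ± 0.23 in polysome fractions (adjusted p = 0.0271). In total mRNA tif452 had 118 and 88.5 CPM at 6 h, against 113 and 107 at 0 h, in eIF2α.S52A cells and 108 and 122 CPM at 6 h, against 111 and 117 at 0 h, in WT cells. In polysome fractions tif452 had 387 and 279.9 CPM at 6 h, against 303 and 331 at 0 h, in eIF2α.S52A cells and 323 and 318 CPM at 6 h, against 278 and 268 at 0 h, in WT cells. For tif452 (SPBC1709.18), described as a second isoform and stress response factor, the times overlapped in total mRNA of both strains, and in polysome fractions of WT cells both 6 h libraries were above both 0 h libraries (0.23 ± 0.20, adjusted p = 0.446). The difference between the changes of both isoforms was not tested. The gene tif471 (SPAC17C9.03) encodes eIF4G, the bridge between eIF4E, eIF4A and the small subunit. In total mRNA tif471 had 350.3 and 429 CPM at 6 h, against 574 and 586 at 0 h, in eIF2α.S52A cells and 349.9 and 378 CPM at 6 h, against 562 and 565 at 0 h, in WT cells. In polysome fractions tif471 had 590.2 and 435 CPM at 6 h, against 1121 and 574 at 0 h, in eIF2α.S52A cells and 448 and 267 CPM at 6 h, against 895 and 469 at 0 h, in WT cells. Its 6 h libraries were lower without overlap except in polysome fractions of eIF2α.S52A cells, and in polysome fractions replicate 1 lay above replicate 2 in each group. The change in WT polysome fractions, -0.93 ± 0.37, was not called (adjusted p = 0.0975) but passed the test with the experiment in the model (adjusted p = 0.0483).

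**Figure D2:**
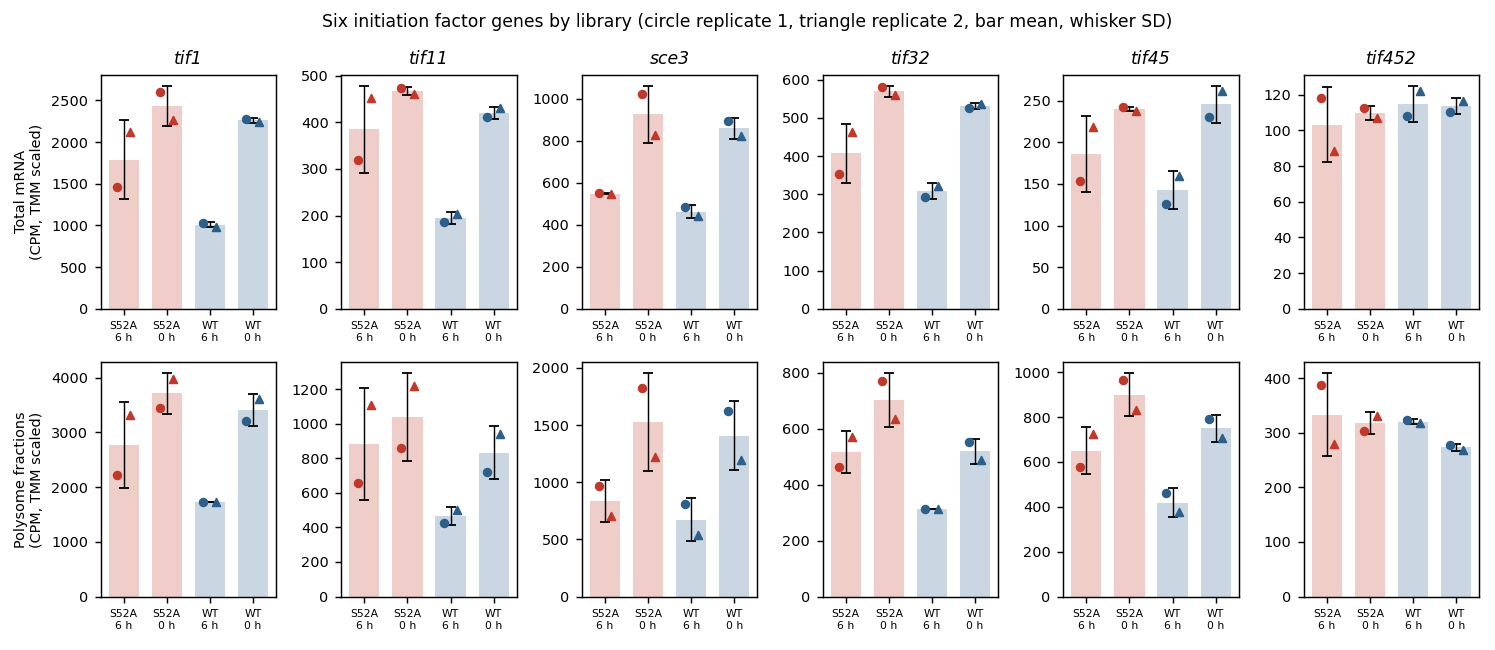
CPM after TMM scaling (y axis, from 0) of 6 genes in each library of total mRNA (top) and polysome fractions (bottom), with eIF2α.S52A at 6 h and 0 h left of WT at 6 h and 0 h. Circles are replicate 1, triangles replicate 2, bars means and whiskers SD (n = 2), and in WT cells at 6 h every bar but those of tif452 is below that at 0 h.

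Subunit joining was represented by tif52 (SPAC56F8.03), named here as in RefSeq, described as IF2 and known as eIF5B, the GTPase that brings in the large subunit. In total mRNA tif52 had 216 and 277 CPM at 6 h, against 379 and 348 at 0 h, in eIF2α.S52A cells and 219 and 246 CPM at 6 h, against 423 and 395 at 0 h, in WT cells. In polysome fractions tif52 had 202 and 206 CPM at 6 h, against 363 and 217 at 0 h, in eIF2α.S52A cells and 180.5 and 122 CPM at 6 h, against 275 and 202 at 0 h, in WT cells. All 6 h libraries were below their 0 h libraries, with -0.56 ± 0.27 in total mRNA of eIF2α.S52A cells (adjusted p = 0.3) and -0.81 ± 0.27 in that of WT cells (adjusted p = 0.0691). The gene tif6 (SPCC1919.09), described as a factor-like ribosome biogenesis protein, encodes eIF6, which in budding yeast keeps new large subunits from joining early. In total mRNA tif6 had 196 and 305 CPM at 6 h, against 268 and 282 at 0 h, in eIF2α.S52A cells and 160.5 and 187 CPM at 6 h, against 279 and 307 at 0 h, in WT cells. In polysome fractions tif6 had 423 and 1029 CPM at 6 h, against 525 and 957 at 0 h, in eIF2α.S52A cells and 365 and 507 CPM at 6 h, against 517 and 871 at 0 h, in WT cells. In eIF2α.S52A cells replicate 1 lay lower at 6 h and replicate 2 higher, whereas in WT cells 6 h was below 0 h in both fractions. Its changes had SE of 0.42, second to those of eif6, and none was called.

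Of 3 genes of other kinds, cdc123 (SPAP27G11.03) encodes the protein that assembles eIF2. In total mRNA cdc123 had 32.6 and 28.2 CPM at 6 h, against 34.2 and 35.5 at 0 h, in eIF2α.S52A cells and 35.02 and 36.7 CPM at 6 h, against 36.3 and 34.6 at 0 h, in WT cells. In polysome fractions cdc123 had 50.5 and 53.9 CPM at 6 h, against 73.7 and 72.2 at 0 h, in eIF2α.S52A cells and 58.7 and 51.3 CPM at 6 h, against 84.0 and 71.8 at 0 h, in WT cells. In total mRNA of WT cells the times overlapped, while in polysome fractions of both strains both 6 h libraries lay below both 0 h libraries. In polysome fractions the change of cdc123 was -0.48 ± 0.15 in eIF2α.S52A cells (adjusted p = 0.0733) and -0.50 ± 0.15 in WT cells (adjusted p = 0.0388), and with library size alone the WT value was 0.01, above 0. The gene eif21 (SPBC4B4.04) encodes eIF2A, a factor apart from eIF2 that can bring initiator tRNA in other organisms. In total mRNA eif21 had 154 and 149.7 CPM at 6 h, against 192 and 172 at 0 h, in eIF2α.S52A cells and 146.03 and 142 CPM at 6 h, against 186 and 183 at 0 h, in WT cells. In polysome fractions eif21 had 92.2 and 114 CPM at 6 h, against 92.7 and 117 at 0 h, in eIF2α.S52A cells and 97.6 and 118 CPM at 6 h, against 112 and 135 at 0 h, in WT cells. The times overlapped in polysome fractions of both strains, and in total mRNA 6 h was lower in both, with -0.26 ± 0.19 and -0.36 ± 0.19 (eIF2α.S52A and WT cells), not called. The gene tma22 (SPBC16C6.05) is described as a mitochondrial factor, but its budding yeast namesake binds cytosolic ribosomes. In total mRNA tma22 had 84.1 and 99.8 CPM at 6 h, against 75.3 and 75.0 at 0 h, in eIF2α.S52A cells and 76.3 and 70.4 CPM at 6 h, against 79.2 and 82.1 at 0 h, in WT cells. In polysome fractions tma22 had 359 and 254 CPM at 6 h, against 245 and 183 at 0 h, in eIF2α.S52A cells and 221 and 144 CPM at 6 h, against 227 and 193 at 0 h, in WT cells. In eIF2α.S52A cells both 6 h libraries were above both 0 h libraries in each fraction, and in WT cells they lay lower in total mRNA and overlapped in polysome fractions. None of its changes was called.

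The mitochondrial factors, a role of only 2 genes, were the only role whose median lay above 0 in all 4 comparisons of 6 h with 0 h. In WT polysome fractions mti2 lay above 0 (0.45) and mti3 below it (-0.04). The gene tma22, also described as mitochondrial, was counted with the genes of other kinds. Its value in WT polysome fractions was below 0, so with it in this role the median there would be below 0. The gene mti2 (SPBC1271.15c) encodes mitochondrial IF2, which brings initiator tRNA to the mitochondrial ribosome, and mti3 (SPBC18E5.13) mitochondrial IF3. In total mRNA mti2 had 71.2 and 54.9 CPM at 6 h, against 37.8 and 43.0 at 0 h, in eIF2α.S52A cells and 57.5 and 47.1 CPM at 6 h, against 40.1 and 48.5 at 0 h, in WT cells. In polysome fractions mti2 had 32.7 and 27.4 CPM at 6 h, against 12.5 and 20.6 at 0 h, in eIF2α.S52A cells and 32.8 and 37.9 CPM at 6 h, against 23.6 and 27.9 at 0 h, in WT cells. In eIF2α.S52A cells mti2 was higher at 6 h without overlap in both fractions, by 0.64 ± 0.23 in total mRNA (adjusted p = 0.172) and 0.85 ± 0.25 in polysome fractions (adjusted p = 0.0588), the largest value above 0 of the set. With the experiment in the model the second was called (adjusted p = 0.0412). In total mRNA mti3 had 27.6 and 23.4 CPM at 6 h, against 17.1 and 22.3 at 0 h, in eIF2α.S52A cells and 21.05 and 25.3 CPM at 6 h, against 18.5 and 20.4 at 0 h, in WT cells. In polysome fractions mti3 had 64.5 and 48.7 CPM at 6 h, against 39.2 and 39.4 at 0 h, in eIF2α.S52A cells and 47.2 and 45.2 CPM at 6 h, against 45.8 and 49.2 at 0 h, in WT cells. For mti3 the changes were 0.53 ± 0.19 in polysome fractions of eIF2α.S52A cells (adjusted p = 0.119) and -0.04 ± 0.19 in those of WT cells (adjusted p = 0.906), and the difference of 0.57 ± 0.27 was not called (adjusted p = 0.848).

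The strains were compared at each time, which asks whether the level of these mRNAs differed between them. The phosphorylation site of eIF2α cannot be told apart here from the other differences between the strains. At 0 h no gene of the set was called by edgeR in either fraction, where 0.0162% of all genes tested were called in total mRNA and 0.0% in polysome fractions. The median of the 26 genes was -0.04 in total mRNA and 0.13 in polysome fractions, beside -0.01 and 0.03 over all genes. An unadjusted p under 0.05 was found for 0 genes of the set in total mRNA (2.04% of all genes) and for 4 in polysome fractions (8.91% of all genes). Of these, moe1, tif32 and tif5 were higher and mti2 lower in eIF2α.S52A cells. DESeq2 called 0 in total mRNA (0.0747% of all genes) and 1 in polysome fractions, the call being tif5, higher in eIF2α.S52A cells (DESeq2 adjusted p = 0.0275, over the 351 genes its own filter left, of which 8.83% were called). At 6 h the eIF2α.S52A value was the higher one for 22 of 26 genes in total mRNA and for 22 of 26 in polysome fractions, with medians of 0.19 and 0.33 beside -0.03 and -0.0009 over all genes. The libraries did not overlap and those of eIF2α.S52A cells were higher for 11 and 12 genes, where 21.3 and 21.7% of all genes tested were so. No gene of the set was called by edgeR, where 0.519 and 0.924% of all genes tested were called.

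At 6 h an unadjusted p under 0.05 was found for hcr1, tif1 and tif11 in total mRNA (13.0% of all genes) and for hcr1, tif1, tif11, tif32, tif33, tif45 and tma22 in polysome fractions (19.1% of all genes), all higher in eIF2α.S52A cells. The values nearest to a call in polysome fractions were 0.80 ± 0.20 for hcr1 (adjusted p = 0.072), 0.72 ± 0.20 for tif32 (adjusted p = 0.0979) and 0.93 ± 0.28 for tif11 (adjusted p = 0.125). In total mRNA tif11 had 0.99 ± 0.28 (adjusted p = 0.183) and tif1 0.83 ± 0.24 (adjusted p = 0.187). With the replicate block tif11 was called higher in total mRNA (adjusted p = 0.0479), where 1.59% of all genes were called, and hcr1 and tif11 in polysome fractions (adjusted p = 0.0257 and 0.0426), where 3.71% were. DESeq2 called hcr1, tif1 and tif11 in total mRNA and hcr1, tif11 and tif32 in polysome fractions, where 2.81 and 6.03% of all genes were called. Without the eIF2α.S52A polysome library of replicate 1 at 6 h, edgeR called 2 genes of the set, both higher in eIF2α.S52A cells, where 4.28% of all genes were called. With library size alone the medians became 0.09 in total mRNA and -0.01 in polysome fractions at 6 h and -0.30 in polysome fractions at 0 h, so the direction in polysome fractions flipped at both times, while relative to the median of all genes they were 0.22, 0.34 and 0.10.

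Whether the change between 0 h and 6 h differed between strains was tested as an interaction. The difference, eIF2α.S52A minus WT, lay above 0 for 22 of 26 genes in total mRNA and 20 of 26 in polysome fractions, with medians of 0.20 in each, beside -0.01 and 0.02 over all genes. No gene of the set was called by edgeR in either fraction, with or without the replicate block (0.0% of all genes tested), or by DESeq2 (0.0149 and 0.389% of all genes). In each fraction 1 gene of the set, hcr1, reached an unadjusted p under 0.05, where 2.37 and 5.59% of all genes did.

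The 2 experiments differed in eIF2α.S52A cells. In replicate 1 the median change of the 26 genes was -0.58 in total mRNA and -0.62 in polysome fractions of eIF2α.S52A cells, beside -0.69 and -0.57 in WT cells. In replicate 2 it was -0.20 and -0.21 in eIF2α.S52A cells, beside -0.58 and -0.64 in WT cells. These are differences of log2(CPM + 1), which understate changes of low genes. The median over 138 cytosolic ribosomal protein genes moved in the same way in eIF2α.S52A cells, with -0.88 and -0.18 in total mRNA and -1.56 and -0.63 in polysome fractions (replicates 1 and 2), and their part in the result was not tested. The strain difference at 6 h was likewise smaller in replicate 1, with medians of 0.13 in total mRNA and 0.23 in polysome fractions, than in replicate 2, with 0.25 and 0.50. Without both eIF2α.S52A libraries of replicate 2 at 6 h, tif1, tif32 and tif5 were called lower in total mRNA of eIF2α.S52A cells, where 12.7% of all genes were called, and 9 genes lower and mti2 and mti3 higher in their polysome fractions, where 18.2% of all genes were called. In WT cells 12 and 13 genes, all lower, were then called in total mRNA and polysome fractions (21.4 and 25.9% of all genes). Between strains no gene of the set was then called, where 0.0% of all genes were at 0 h in each fraction, and 0.0 and 0.595% at 6 h in total mRNA and polysome fractions. The ratio of polysome fractions to total mRNA in eIF2α.S52A cells at 6 h was then called for 19 genes, 17 higher and 2 lower, where 36.2% of all genes were called. Its change over time in eIF2α.S52A cells, and the difference between strains in the change of total mRNA, of polysome fractions and of the ratio, were then called for no gene of the set and for 0.0% of all genes. With replicate 2 left out, eIF2α.S52A at 6 h had 1 library in each fraction, which is taken to vary like the other groups.

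**Figure D3:**
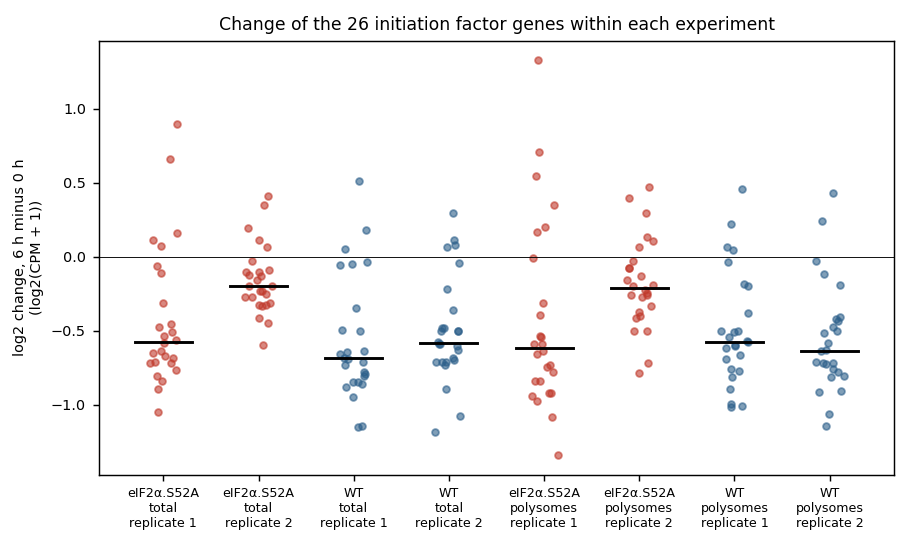
Change of the 26 genes between 0 h and 6 h within each experiment, as log2(CPM + 1) at 6 h minus that at 0 h (y axis), for eIF2α.S52A cells (red) and WT cells (blue) in total mRNA and polysome fractions. Each point is a gene and each black line the median, which is -0.20 and -0.21 in replicate 2 of eIF2α.S52A cells and between -0.69 and -0.57 elsewhere.

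Polysome fractions were set against total mRNA of the same cells to ask how well these mRNAs were represented on polysomes relative to other mRNAs. In eIF2α.S52A cells 17 genes were called higher and 2 lower in polysome fractions at 6 h, where 21.7% of all genes tested were called higher and 21.0% lower, and 18 higher and 2 lower at 0 h, where 22.1 and 22.4% were. In WT cells 17 were called higher and 0 lower at 6 h, where 17.8 and 18.3% of all genes tested were, and 16 higher and 3 lower at 0 h, where 18.4 and 18.4% were. The median ratio of the 26 genes was 1.04 and 0.87 at 6 h and 1.05 and 0.89 at 0 h (eIF2α.S52A and WT cells), beside medians between -0.07 and -0.04 over all genes. Leaving out 1 library at a time, which leaves 1 library in a group, lowered the number of genes called in WT cells at both times. This held for the 26 genes and for all genes tested, most of all without the total mRNA library of replicate 1. In eIF2α.S52A cells it lowered the number of all genes tested that were called at both times, and that of the 26 genes at 0 h. At 6 h it did not raise the number of the 26 genes called. These ratios depend on the scaling: with library size alone the medians were -0.10 and -0.02 at 6 h and -0.52 and -0.29 at 0 h (eIF2α.S52A and WT cells), since the median of all genes then moved by between -1.57 and -0.89. Relative to that median the 26 genes kept ratios between 0.93 and 1.10.

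By role, all 4 genes of start-codon selection were called higher in polysome fractions in all 4 groups, and sui1 had the highest ratio of the set in each, with 2.28 ± 0.22 at 0 h in eIF2α.S52A cells (adjusted p = 1.67e-05) and 1.92 ± 0.22 in WT cells (adjusted p = 0.000103). In sui1 every polysome library was above 3 times the highest total mRNA library of its group. Among the others, tif11 had ratios between 0.99 and 1.26, tif5 between 0.99 and 1.34, and tif1102 between 0.72 and 1.02. Of the 10 eIF3 genes, hcr1, moe1, sum1, tif313, tif33 and tif38 were called higher in all 4 groups and tif302 in eIF2α.S52A cells only, which was not tested as a difference between strains. The gene of the largest subunit, tif32, had ratios between -0.03 and 0.34, and its polysome and total libraries overlapped in WT cells. Ratios of sum1 lay between 1.31 and 1.59 and those of eif6 and tif35 were not called in any group.

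Both genes of eIF4E stood high on polysomes. Ratios of tif45 ran from 1.55 to 1.90 and those of tif452 from 1.26 to 1.69, called in each of the 4 groups. By contrast, tif471 had ratios between -0.03 and 0.55, none called, and sce3 and tif1 each passed the test in 1 group, sce3 with 0.72 ± 0.27 at 0 h in eIF2α.S52A cells (adjusted p = 0.0491) and tif1 with 0.78 ± 0.24 at 6 h in WT cells (adjusted p = 0.0245). The genes tif6, cdc123, tma22 and mti3 were called higher in all 4 groups, with ratios of tma22 between 1.32 and 1.74. The genes below 0 in all 4 groups were tif52, eif21 and mti2. Ratios of mti2 lay between -1.27 and -0.57, called in 3 groups and not in WT cells at 6 h (adjusted p = 0.0775), and eif21 was called in the same 3 groups with ratios between -0.79 and -0.42. For tif52 only the ratio at 0 h in WT cells was called, -0.78 ± 0.27 (adjusted p = 0.0404). Under library size alone, 35 of the 75 ratios called changed sign, sui1 keeping its direction in all 4 groups. Some of those at 0 h were then called lower in polysome fractions.

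**Figure D4:**
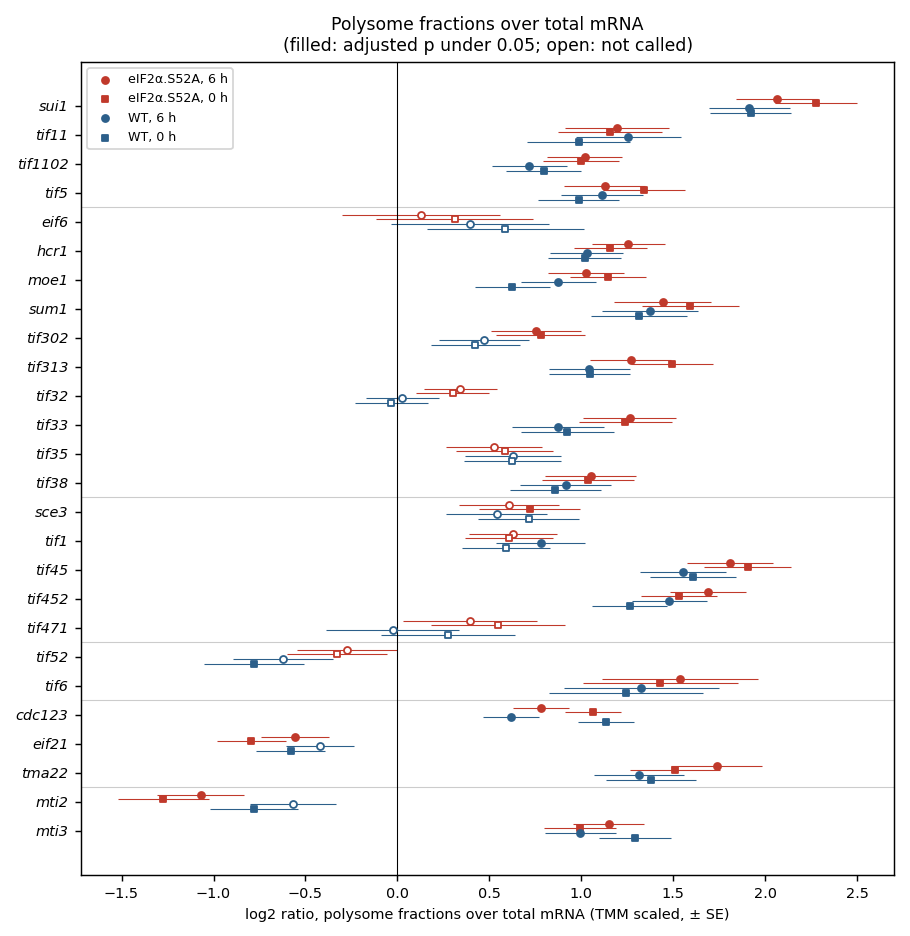
Ratio of polysome fractions to total mRNA for each of the 26 genes as log2 with SE (x axis), after TMM scaling, in eIF2α.S52A cells (red) and WT cells (blue) at 6 h (circles) and 0 h (squares). Filled points were called, and sui1 lies farthest to the right while mti2, eif21 and tif52 lie left of 0 in all 4 groups.

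Genes with a short coding sequence had the higher ratios. Across the 26 genes Spearman's rho between coding length and ratio was -0.62 and -0.69 at 6 h and -0.57 and -0.74 at 0 h (eIF2α.S52A and WT cells), and across 4990 genes with a coding length it was -0.49 and -0.56 at 6 h and -0.47 and -0.58 at 0 h. These describe genes within the same libraries, which are no independent replicates. The coding sequence of sui1, 330 bp, was the shortest of the set, and that of tif471, 4212 bp, the longest. With 702 bp, mti3 was called higher in all groups, and mti2, with 2061 bp, was lower. The highest ratio thus belonged to the shortest gene and the ratios of the 2 longest, tif471 and tif52, were at or below 0.55 ± 0.36.

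**Figure D5:**
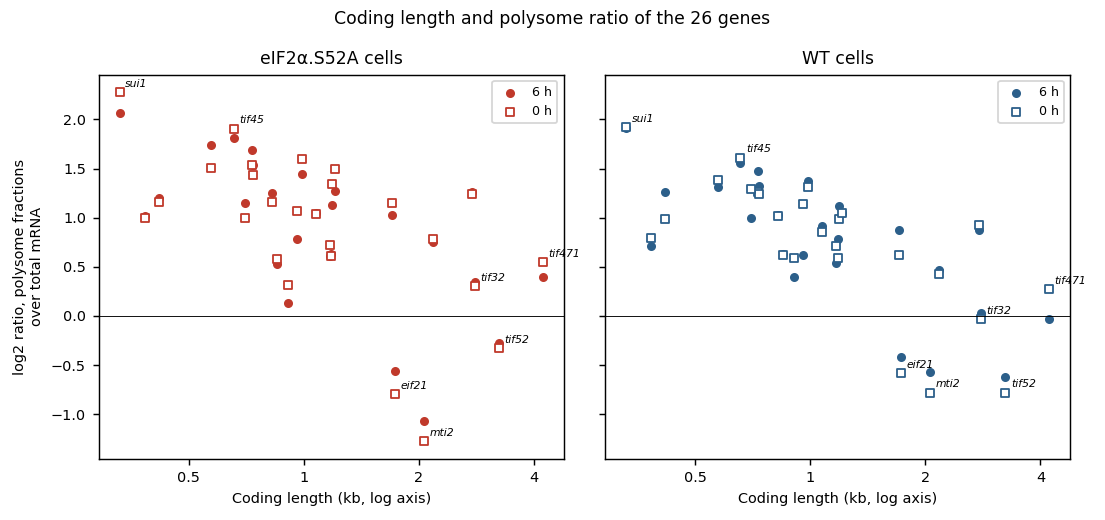
Coding length in kb (x axis, log scale) against the log2 ratio of polysome fractions to total mRNA (y axis) for the 26 genes in eIF2α.S52A cells (left) and WT cells (right), at 6 h (filled) and 0 h (open). Short genes such as sui1 (330 bp) lie at the top left and long ones such as tif52 (3240 bp) at the bottom right, with mti2 and eif21 below the others of their length.

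The change of this ratio between 0 h and 6 h, a measure of translation efficiency, was tested in the same model. The median was 0.02 in eIF2α.S52A cells and 0.03 in WT cells, beside 0.01 and 0.02 over all genes, so that relative to other mRNAs the ratio of the typical member changed little. With library size alone the medians were 0.45 and 0.31 (eIF2α.S52A and WT cells), and relative to the median of all genes -0.02 and 0.01. No gene of the set was called by edgeR, where 0.0% of all genes tested were called in eIF2α.S52A cells and 0.0162% in WT cells, and none by DESeq2 (0.0448 and 0.0897% of all genes). An unadjusted p under 0.05 was found for 0 genes of the set in eIF2α.S52A cells (1.6% of all genes) and 1 in WT cells (2.53% of all genes), cdc123, with -0.52 ± 0.21 (adjusted p = 1). The value of cdc123 came from ratios of 0.62 ± 0.15 at 6 h and 1.14 ± 0.15 at 0 h. The difference of this change between strains, eIF2α.S52A minus WT, had a median of -0.03, which became 0.12 with library size alone as the median of all genes moved by 0.16. The highest value was that of mti3 (0.45 ± 0.39, adjusted p = 1), and no gene of the set had an unadjusted p under 0.05 (0.616% of all genes) or was called by edgeR (0.0%) or DESeq2 (0.0149%).

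Other genes of the translation machinery were counted for comparison, each over its whole list. The lists held 8 eIF2 and eIF2B genes, 9 elongation and termination genes and 138 cytosolic ribosomal protein genes. In total mRNA of eIF2α.S52A cells 0, 0 and 0 of them were called lower, where 0.746% of all genes were. Their medians there were -0.37, -0.39 and -0.52, beside -0.34 for the 26 genes. In polysome fractions of eIF2α.S52A cells 0, 1 and 82 were called lower (medians of -0.49, -0.71 and -1.03, beside -0.43), where 3.58% of all genes were called lower. In total mRNA of WT cells 3, 3 and 115 were called lower (medians of -0.57, -0.86 and -1.11, beside -0.63), where 6.01% of all genes were, and in their polysome fractions 2, 5 and 117 (medians of -0.47, -0.89 and -1.20, beside -0.60), where 8.9% of all genes were. Of 9 partners of initiation 8 were found in the table, the eIF2α kinases gcn2, hri1 and hri2 with gcn1, gcn20, pabp, rli1 and sum3. Their median changes were -0.16 and -0.37 in total mRNA and 0.13 and -0.15 in polysome fractions (eIF2α.S52A and WT cells). The kinase gene hri1 was called higher at 6 h in all 4 comparisons, with 2.63 ± 0.47 and 2.30 ± 0.46 in total mRNA and 3.07 ± 0.50 and 2.51 ± 0.47 in polysome fractions (eIF2α.S52A and WT cells). Of all genes, 2.12 and 6.0% were called higher in total mRNA and 3.4 and 8.57% in polysome fractions. Among the partners only pabp, which encodes the poly(A)-binding protein, was called lower, in polysome fractions of WT cells (-1.03 ± 0.25). At 0 h in WT cells the median ratio of polysome fractions to total mRNA was 0.81 for eIF2 and eIF2B, 1.10 for elongation and termination and 2.13 for ribosomal proteins, and -0.24 for the partners of initiation.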

How the data were processed

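Total mRNA and sucrose-gradient polysome fractions were sequenced (TruSeq Stranded mRNA, paired reads) in 16 libraries, 8 groups of 2, grouped by their labels. The authors aligned reads with STAR to the ASM294v2 genome (Ensembl fungi release 35), used SAMtools and FastQC, and counted reads per gene by strand with QoRTs (tool versions: not given in the sources used here). Their deposited counts are unnormalized reads per gene. The table of counts that the authors scaled by DESeq2 size factors was not used. Total counts ranged between 11279417 and 20522997, and intervals from 2 libraries a group are wide.

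In 44 rows the deposited name and description belong to another identifier. Counts followed the identifiers, so names and descriptions were rejoined by identifier, which keeps 26 members either way, 25 of them shared. Of the identifiers 6846 matched RefSeq, among them all members. Coordinates are not given since the builds differ.

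Counts were tested with edgeR 4.0.16 (R 4.3.3, limma 3.58.1): filterByExpr, TMM, 1 quasi-likelihood model of 8 groups, 17 comparisons, Benjamini-Hochberg adjustment over 6170 genes, threshold 0.05, and SE from the log2 fold change and F. The residual df was 8 and the common dispersion 0.0585. All tests were two-sided. The pipeline was tested on simulated data. Alternatives were DESeq2 1.42.0, other scalings, no filter, fewer libraries and a replicate block. Same-numbered libraries come from the same experiment by the labels' descriptions, and over 28 pairs of groups the correlation of their deviations from group means ran from -0.09 to 0.58, above 0 in 27. Nothing states that the replicates of a group were separate cultures beyond being separate experiments. The p-values of the main model rest on the spread between the experiments within groups. That model treats all libraries as independent, although those of an experiment tended to deviate together. With the replicate block, a shift shared by the libraries of an experiment is taken out of that spread. Values per library are given for every member called in any comparison (23), for the members with the largest values in each direction between times and strains, and for the few others. The members and lists were chosen with earlier results of these data known.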

Additional observations from a re-analysis of the deposited data

How the results depend on the processing

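Of the 85 values of called members, DESeq2 and the replicate block left all 85 on their side of the threshold and in their direction, the scaling by size factors (RLE) 83, no filter on low counts 84, the libraries of the comparison alone 67, and the omission of both eIF2α.S52A libraries of replicate 2 at 6 h, chosen after seeing the data, 84, while library size alone left 17. Counts of members called are given next, for 6 h against 0 h in eIF2α.S52A total mRNA, WT total mRNA, eIF2α.S52A polysome fractions and WT polysome fractions in this order: 0, 5, 0 and 5 as reported, 1, 11, 5 and 12 with the replicate block, 0, 14, 7 and 11 with DESeq2, and 3, 12, 11 and 13 without those libraries. Between strains, total mRNA and then polysome fractions at 6 h gave 0 and 0 as reported, 1 and 2 with the block, and 3 and 3 with DESeq2, which also called 1 in polysome fractions at 0 h. The block changed the count in no other comparison by over 1.5 times. With the libraries of the comparison alone the count for time rose in WT total mRNA and fell in WT polysome fractions. It also fell for the ratio of polysome fractions to total mRNA in eIF2α.S52A cells at 6 h. The share of all genes called in these fits was not computed, so the counts are left out. Leaving out 1 library at a time gave 0 to 0 and 0 to 1 members called for time in WT total mRNA and polysome fractions, 0 to 7 in eIF2α.S52A polysome fractions (7 without replicate 2 at 6 h and 1 without replicate 2 at 0 h), 0 to 2 for strain at 6 h in polysome fractions, and for the ratio 16 to 19 and 17 to 18 in eIF2α.S52A cells at 6 h and 0 h and 10 to 14 and 10 to 15 in WT cells.

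Library size alone moved most ratios, because polysome libraries then lie on another scale. It called 5, 1 and 2 members for time in eIF2α.S52A polysome fractions, WT total mRNA and WT polysome fractions, those of polysome fractions higher at 6 h. It called 8, 8 and 9 for the ratio in eIF2α.S52A cells at 6 h, WT cells at 6 h and WT cells at 0 h. The share of all genes called with library size alone was not computed, so these counts cannot be set against other genes. The median of all genes moved by 0.59, 0.22 and 0.51 in these comparisons of time, in the order given. In those of the ratio it moved by -1.13, -0.89 and -1.17. Library size alone left 17 of the 85 values as they were, ended the call of 32 and turned the sign of 36. The reversed log2 values were 0.0056 of cdc123 for time in WT polysome fractions. For the ratio in WT cells at 0 h they were tif313 -0.13, tif5 -0.19, hcr1 -0.15, tif33 -0.26, moe1 -0.55, tif38 -0.31, cdc123 -0.041, tif1102 -0.37 and tif11 -0.18. In WT cells at 6 h they were tif1 -0.11, tif33 -0.0229, moe1 -0.0176, cdc123 -0.28 and tif1102 -0.17. In eIF2α.S52A cells at 0 h they were tif313 -0.10, tif302 -0.82, tif5 -0.25, hcr1 -0.42, tif33 -0.36, moe1 -0.45, tif38 -0.53, cdc123 -0.52, tif1102 -0.58, tma22 -0.0862, tif452 -0.0423, mti3 -0.60, sce3 -0.87, tif11 -0.40 and tif6 -0.12. In eIF2α.S52A cells at 6 h they were tif302 -0.37, tif5 -0.0087, moe1 -0.11, tif38 -0.10, cdc123 -0.35 and tif1102 -0.11. Some reversed ratios, all at 0 h, were themselves called lower in polysome fractions by edgeR with library size alone. They were moe1 in WT cells (adjusted p = 0.0144) and tif302, sce3, cdc123, moe1 and mti3 in eIF2α.S52A cells (adjusted p = 0.00387 to 0.0401).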

Other observations

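In polysome fractions the experiments differed for some members in the same direction in all 4 groups. For tif471, which encodes eIF4G, replicates 1 and 2 had 590.2 against 435 and 1121 against 574 CPM at 6 h and 0 h in eIF2α.S52A cells, and 448 against 267 and 895 against 469 CPM in WT cells. For tif6, which encodes eIF6, they had 423 against 1029 and 525 against 957 CPM in eIF2α.S52A cells and 365 against 507 and 517 against 871 CPM in WT cells, so that replicate 1 was the lower one throughout. Replicate 1 was above replicate 2 in all 4 groups for sce3, tif302, tif471 and tma22. It was below replicate 2 in all 4 for eif21, eif6, sum1, tif1, tif11, tif35, tif38 and tif6. The share of all genes with such a pattern was not computed, so it cannot be read as a trait of these genes. Over all genes tested, the deviations of replicates from group means correlated between polysome groups, with values from 0.24 to 0.57.

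The row that carries the name tif32 but the identifier of nto1 (SPBC17D11.04c) summed to 13182 reads over all libraries, against 119450 for the identifier of eIF3a. Read by its name, eIF3a would not be called between 6 h and 0 h, with -0.01 ± 0.30 (adjusted p = 0.988) in total mRNA and 0.48 ± 0.31 (adjusted p = 0.3) in polysome fractions of WT cells by edgeR, in place of -0.79 ± 0.20 and -0.73 ± 0.20. The gene nto1 lay lower in polysome fractions than in total mRNA in all 4 groups.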
